A study of Homo sapiens with 24 samples.

Results

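The U6 small nuclear RNA loci are described here in human embryonic kidney HEK293 cells that overexpressed eGFP (the GFP control) or 1 of 3 nuclear lamins: LMNA, LMNB1 or LMNB2. HEK293 is an established line, and the labels give the genotype of every group as Wild Type and no difference between groups other than the overexpressed protein. Small RNA-seq and ATAC-seq, which counts transposase insertions into open chromatin, were each run on 3 replicates per group, 24 libraries in all. Nothing in the labels says that replicates came from separate cultures, so p-values measure the spread between these libraries, which may be technical. The loci were the entries of the small RNA table that are not lncRNA and whose first name is RNU6- with a digit: 9 of 175946 entries. The same 9 loci were read from the ATAC table, where each has a window over the feature and flanking windows of 500, 5000 and 50000 bp on either side.

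U6 is the small nuclear RNA at the catalytic centre of the spliceosome. It enters paired with U4 in the U4/U6.U5 tri-snRNP, is released from U4, and then pairs with U2 and with the 5′ splice site. Unlike U1, U2, U4 and U5, it is made by RNA polymerase III, from a promoter that lies wholly upstream of the gene and holds a TATA box, a proximal element bound by SNAPc and a distal element. Cells carry a handful of full-length U6 genes beside a very large number of U6-derived pseudogenes, and the mature RNA from different genes is nearly identical in sequence.

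By position in RefSeq (GRCh38), 5 of the 9 loci lay on annotated U6 genes and 4 on U6 pseudogenes, although the table gives all of them names of U6 genes. RNU6-1 is on chromosome 15 (interval 67839914 to 67840070, minus strand). The nearest protein-coding gene, SKOR1, is 5332 bp away. RNU6-2 is on chromosome 19 (1021496 to 1021652, plus strand), 373 bp from TMEM259. RNU6-9 is also on chromosome 19 (893458 to 893615, plus strand), 271 bp from MED16, which encodes a Mediator subunit. RNU6-7 (32202019 to 32202176, plus strand) and RNU6-8 (32203138 to 32203294, minus strand) face each other on chromosome 14, with 1011 bp between the genes and no coding gene within 42291 bp. The 4 pseudogene loci, all named RNU6-1 in the table, are RNU6-3P on chromosome X (141118005 to 141118161), RNU6-4P on chromosome 3 (181231711 to 181231867, inside the lncRNA gene SOX2-OT), RNU6-5P on chromosome 2 (174557941 to 174558097) and RNU6-6P on chromosome 10 (13217243 to 13217399). RefSeq lengths were 106 or 107 bp, and each interval of the table reached 24 to 26 bp further on either side. RNU6-2 and RNU6-8 appear nowhere among the table's names for these loci and are named here by position only. Loci are called by their RefSeq symbols below.

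Count totals were 132507051 to 195074742 per small RNA library and 156043245 to 290158229 per ATAC library over the feature windows. The 9 U6 entries took 0.0018% to 0.0033% of the small RNA counts, while lncRNA entries took 77.9% to 86.5%. The mitochondrial chromosome took 39.9% to 47.5% of the ATAC window counts in GFP libraries, 39.4% to 44.1% in LMNA, 32.8% to 34.1% in LMNB1 and 24.5% to 30.7% in LMNB2, so this share moved with the groups. With scaling factors computed without that chromosome, the median log2 fold changes over the 9 U6 windows were 0.09, 0.08 and -0.08, the same to 2 decimals as with it. At the LMNB1 and LMNB2 loci, entries rose by up to 7.60 and 9.77 (log2) in the small RNA libraries of the matching group. LMNA was marked by 1 of 6 tested ATAC windows, which rose by 8.65 in the LMNA group. The 1 tested small RNA entry at the LMNA locus had -0.09 and was not called. The LMNA small RNA libraries thus have no such mark. The tables hold non-coding entries, so no protein-coding marker of the cell line was checked.

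In the small RNA libraries the 4 pseudogene loci held as many counts as RNU6-1, RNU6-2 and RNU6-9, and the chromosome 14 pair held fewer. Mean counts over the 12 libraries were 461 at RNU6-1, 463 at RNU6-2, 528 at RNU6-9, 313 at RNU6-7 and 293 at RNU6-8. At the pseudogenes they were 507 (RNU6-3P), 494 (RNU6-4P), 475 (RNU6-5P) and 456 (RNU6-6P). Leaving out the chromosome 14 pair, the highest of the other 7 loci exceeded the lowest by a factor of 1.09 to 1.39 within any library. Across the 12 libraries the log2 levels of the 9 loci had pairwise Pearson correlations of 0.47 to 0.97 (median 0.92 over 36 pairs). The mature RNA of different U6 genes is nearly identical, so a read may match several copies. The sequences of the 9 loci were not compared, and how such reads were counted is not given in the sources used here. The 9 small RNA values are therefore not taken as independent measurements of 9 loci.

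RNU6-7 and RNU6-8 stood below the other 7 loci in 10 of 12 small RNA libraries. In those 10 libraries their mean count was 48.8% to 63.5% of the mean of the other 7. In GFP replicate 3 it was 98.9% and in LMNA replicate 3 it was 100%. RNU6-8, for instance, had 310, 182 and 422 counts in GFP replicates 1 to 3, and 301, 228 and 605 in LMNA. It had 224, 205 and 209 in LMNB1, and 315, 254 and 258 in LMNB2. RNU6-9 held 643, 351 and 451 counts in the GFP libraries and 814, 472 and 601 in those of LMNA. Its LMNB1 counts were 471, 509 and 478, and its LMNB2 counts 588, 490 and 463. The 2 highest RNU6-8 counts were thus those of the libraries in which the pair was level with the rest, while RNU6-9 was not at its highest there. The share was 51.2% to 52.4% in the LMNB1 libraries and 57.7% to 63.5% in the LMNB2 libraries. These 2 libraries stood apart, so comparisons on small RNA are given with and without them.

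**Figure D1:**
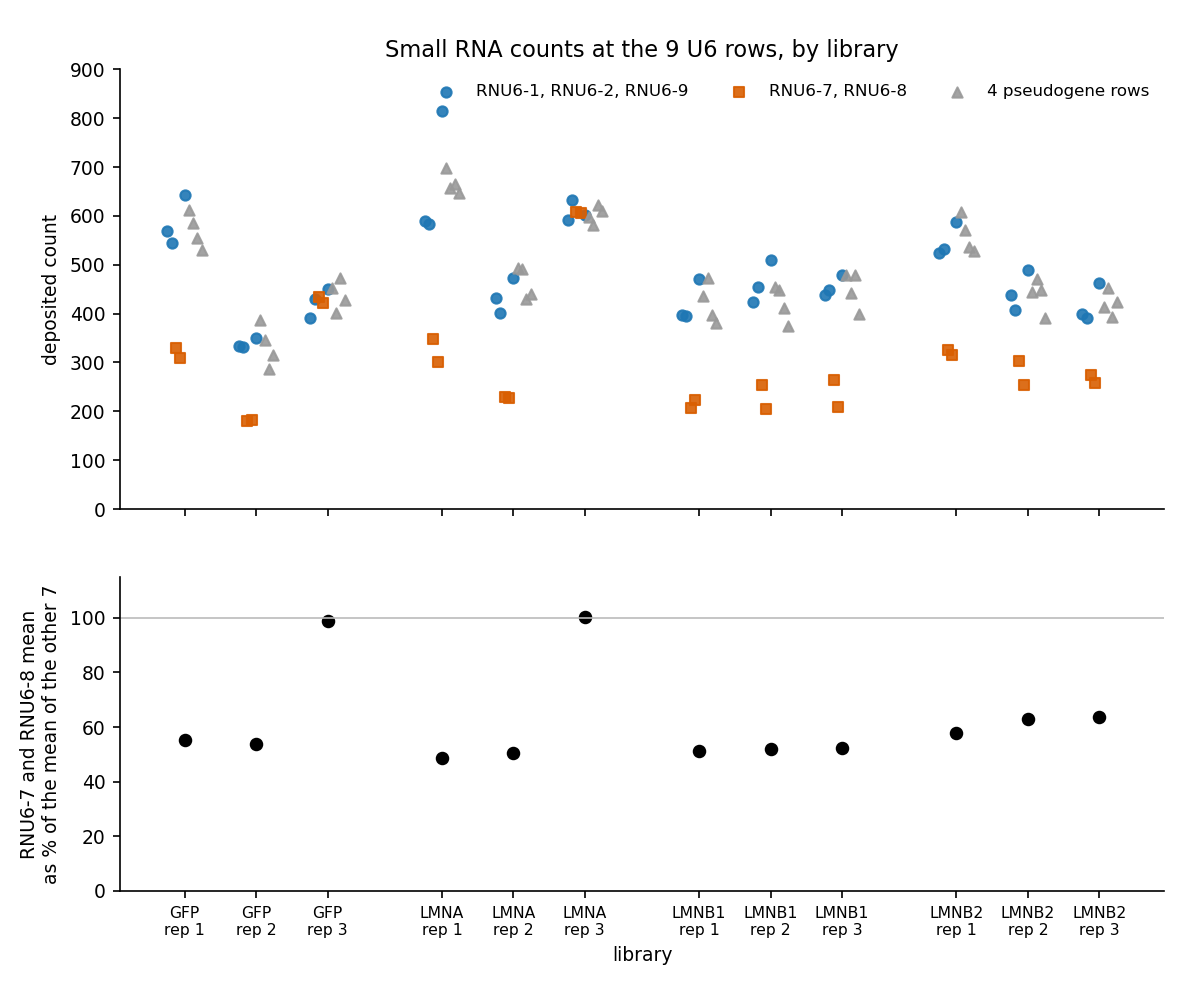
Upper panel: deposited small RNA count (y axis) of each U6 entry in each of 12 libraries (x axis); circles are RNU6-1, RNU6-2 and RNU6-9, squares RNU6-7 and RNU6-8, triangles the 4 pseudogenes. Lower panel: mean count of RNU6-7 and RNU6-8 as a percentage of the mean of the other 7, which was 48.8% to 63.5% in 10 libraries and 98.9% and 100% in the remaining 2.

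Scaled to library size with TMM factors, the GFP replicates spanned the values of all other libraries. In CPM, the usual unit of counts scaled by library size (here TMM-scaled), the mean of the 9 loci was 4.47, 2.22 and 2.43 in the GFP replicates, a mean of 3.04 ± 1.24 (SD, n = 3). It was 3.67, 2.78 and 3.54 in LMNA (3.33 ± 0.481, SD, n = 3). The lamin B groups were lower and tighter, at 2.27, 2.40 and 2.35 in LMNB1 (2.34 ± 0.0685, SD, n = 3) and 3.04, 2.59 and 2.74 in LMNB2 (2.79 ± 0.226, SD, n = 3). On this scale GFP replicate 1 was the highest library of all and GFP replicate 2 the lowest. The rank of GFP replicate 1 depended on its TMM factor of 0.631, the lowest of all small RNA libraries. As a share of all counts the 9 loci took 0.00254% there, 0.00286% in GFP replicate 3 and 0.00333% in LMNA replicate 1. GFP replicate 2 was lowest by that share too, at 0.00180%. In order of their means the groups ran LMNA, GFP, LMNB2, LMNB1, and GFP overlapped each of the others. In such bulk samples, fewer cells with U6 RNA and less U6 RNA per cell cannot be told apart.

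No U6 locus passed the test in the small RNA data, in any comparison with GFP. All 9 were tested with the quasi-likelihood test of edgeR. Benjamini-Hochberg adjustment ran over 33893 entries, and a call needed an adjusted p under 0.05. For LMNA against GFP, 0 of 9 were called, where 0% of all entries were called, and 0 of the 9 had an unadjusted p under 0.05. Over all entries 1850 had such a p. DESeq2 called 0 of 9 as well, and 24 entries in all. The 9 log2 fold changes ran from 0.08 to 0.20, with a median of 0.15 beside -0.05 over all tested entries. The direction was not stable: the median was -0.04 without GFP replicate 2. Without both GFP replicate 3 and LMNA replicate 3, a set chosen after seeing the data, it was -0.000705, with 4 loci above 0 and 5 below. RNU6-1 had a log2 fold change of 0.08 ± 0.24 (SE), with a 95% interval of -0.39 to 0.56. The interval leaves room for a change in either direction.

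For LMNB1 against GFP, 0 of 9 loci were called beside 0.0384% of all entries, and DESeq2 also called none of them. All 9 values were below 0, with a median of -0.34 beside -0.05 over all entries. The chromosome 14 pair had the 2 lowest values and the only unadjusted p-values under 0.05, where 5.51% of all entries had one. RNU6-8 had -0.73 ± 0.28 (SE; edgeR unadjusted p = 0.0198, adjusted p = 0.861) and RNU6-7 had -0.60 ± 0.28 (unadjusted p = 0.0494, adjusted p = 0.861). At RNU6-6P, 1 of 9 loci, the 3 LMNB1 libraries all lay below the 3 GFP libraries, at 2.29493, 2.29453 and 2.31449 CPM against 4.56144, 2.31498 and 2.41101, whereas 5.29% of all entries were separated in that way. The highest LMNB1 library and the lowest GFP library of RNU6-6P were thus all but tied. The direction rested on GFP replicate 1: without it the median over the 9 loci was 0.09, and only RNU6-6P (-0.04), RNU6-7 (-0.39) and RNU6-8 (-0.55) stayed below 0. Without GFP replicate 3 and LMNA replicate 3, a set chosen after seeing the data, the median was -0.47. The lowest adjusted p was 0.238 by edgeR, so no locus was called, beside 0.228% of all entries. In that fit 4 loci had an unadjusted p under 0.05. The share of all entries with such a p was not computed there, so the 4 cannot be set against it.

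For LMNB2 against GFP, 0 of 9 loci were called, although 2.66% of all entries were. Of the 9 loci, 0 had an unadjusted p under 0.05, where 19.9% of all entries had one. DESeq2 called 0 of 9 too. The values ran from -0.25 (RNU6-8) to -0.02 (RNU6-4P), with a median of -0.11 beside -0.04 over all entries. The sign was not stable: without GFP replicate 1 the median was 0.28, and with library totals in place of TMM it was 0.23, where the median of all entries was 0.19. Without GFP replicate 3 and LMNA replicate 3 it was -0.20, with 9 of 9 loci below 0 and a lowest edgeR adjusted p of 0.389. In the joint test of the 3 lamins against one another, 0 of 9 loci passed beside 1.93% of all entries, and the lowest adjusted p was 0.241 by edgeR, at RNU6-8. DESeq2, whose joint test was fitted to the lamin libraries alone, passed 2 of 9 beside 6.45% of all entries. They were RNU6-6P (adjusted p = 0.0282) and RNU6-8 (adjusted p = 0.0335). Without GFP replicate 3 and LMNA replicate 3 the joint edgeR test passed 0 of 9, beside 7.38% of all entries. That test gave 2 unadjusted p-values under 0.05 and a lowest adjusted p of 0.161. The share of all entries with such an unadjusted p was not computed for it.

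**Figure D2:**
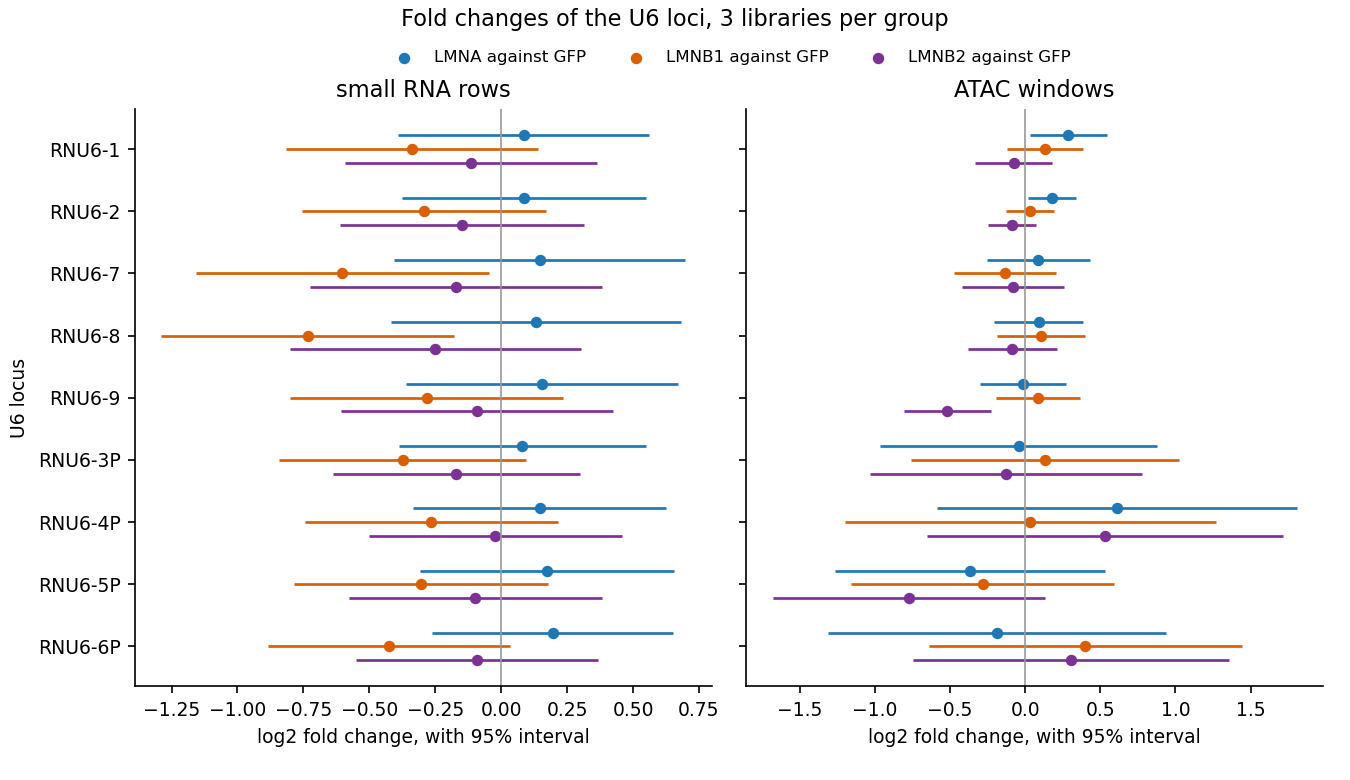
Log2 fold change against GFP (x axis) with its 95% interval for each U6 locus (y axis) in small RNA (left) and ATAC (right), in 3 lamin groups of 3 libraries each. In small RNA all 9 loci were above 0 for LMNA and below 0 for LMNB1 and LMNB2, and no locus was called. The interval of RNU6-9 in ATAC lay below 0 for LMNB2, from -0.81 to -0.23. Intervals also left out 0 at RNU6-1 and RNU6-2 for LMNA in ATAC (above 0). Those of RNU6-7 and RNU6-8 for LMNB1 in small RNA lay below 0.

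Per length, the U6 loci were below the U1, U2, U5 and U12 genes named here. On the scale of GFP mean CPM per kilobase of the interval, they stood between 13.5 (RNU6-8) and 22.6 (RNU6-3P). RNU5E-1, a U5 gene, stood at 3557, RNU12, the U12 RNA of the minor spliceosome, at 1100, RNU2-1 at 646 and RNU1-1 at 529. The U4 genes were nearer, with 52.2 for RNU4-2 and 19.9 for RNU4-1, so U6 did not stand apart from its partner RNU4-1. RNU6ATAC, the U6 counterpart of the minor spliceosome, was at 0.569. RNA polymerase III genes with the same kind of upstream promoter ranged widely, from RNY4, a Y RNA, at 6028 through RN7SK at 311 and RPPH1, the RNase P RNA, at 63.9 to RNU6ATAC itself.

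Among the other spliceosomal RNA genes, 38 of 41 entries were tested. For LMNA and LMNB1, 0 were called, and 2 were called higher for LMNB2, where 2.66% of all entries were called. The median log2 fold changes over the tested ones were 0.25, 0.11 and 0.17. Of the 41 entries, 12 are named RNU2-1 and 6 RNU1-1 and may share reads, so these medians are not over independent genes. An unadjusted p under 0.05 was found for 1, 0 and 13 of the 38, beside 5.46%, 5.51% and 19.9% of all entries. For LMNB2, 30 of the 38 were above 0 and 8 below, down to -0.61 at RNU5F-1, a U5 gene. The 2 called were RNVU1-19 (0.92 ± 0.20, edgeR adjusted p = 0.0282) and RNVU1-1 (0.90 ± 0.20, adjusted p = 0.0316), which are variant U1 genes and may share reads. RNVU1-19 had 2779, 3936 and 4865 counts in GFP and 7391, 8557 and 7445 in LMNB2, with no overlap between the groups. In 12.1% of all entries the 3 LMNB2 libraries all lay above GFP in that way. Of 8 RNA polymerase III genes with upstream promoters other than U6 (RNU6ATAC is on both lists), all tested, none was called in any comparison with GFP. Of the 8, 0, 0 and 2 had an unadjusted p under 0.05, where 5.46%, 5.51% and 19.9% of all entries had one. The medians of the 8 were 0.17, 0.13 and 0.16, and the 3 with the highest counts (RNY4, RNY5 and RNY1) had LMNB2 values of 0.28, 0.54 and 0.55.

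The box C/D RNAs that guide 2′-O-methylation of U6 were not called either. All 6 (SNORD7, SNORD8, SNORD9, SNORD10, SNORD67 and SNORD94) were tested, and 2, 0 and 1 had an unadjusted p under 0.05 for LMNA, LMNB1 and LMNB2. Over all entries 5.46%, 5.51% and 19.9% had such a p. The medians of the 6 were 0.36, -0.10 and 0.32, and SNORD10, the most abundant, had 0.74, -0.26 and 0.32. Among 940 further U6-related entries, mostly pseudogene copies, 527 had any small RNA count and 46 were tested. None of those was called for LMNA or LMNB1, and 2 fell for LMNB2, where 2.66% of all entries were called. The medians over the 46 were -0.24, -0.43 and -0.47, with 32, 39 and 36 of them below 0. One on chromosome 2 (200829983 to 200830141) had 35, 26 and 50 counts in GFP and 29, 12 and 12 in LMNB2 (-1.10 ± 0.30, edgeR adjusted p = 0.0452). One on chromosome X (54343520 to 54343677) had 11, 13 and 16 counts in GFP and 3, 3 and 1 in LMNB2 (-1.93 ± 0.58, adjusted p = 0.0312). Both hold far fewer counts than any of the 9 loci.

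Over the 12 libraries the U6 level followed a small number of snoRNAs and a tRNA most closely. Among 1423 tested entries that are not lncRNA and have a mean of at least 1 CPM, the highest Pearson correlations with the mean U6 profile on the log2 CPM scale were those of SNORD1C (0.94), SNORD13 (0.94), an SRP RNA entry whose interval contains SNORD13 (0.94), tRNA-Phe-GAA-2-3 (0.93) and SNORD135 (0.93). These correlations share the libraries and their scaling, and GFP replicate 1 had the highest U6 deviation from the mean, 0.66 (log2). They are descriptions of the 5 most alike entries out of 1423, with no test.

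The ATAC counts separated genes from pseudogenes. The windows over the 5 U6 genes, 407 or 408 bp wide, held between 107 and 1912 counts in any library, and those over the 4 pseudogenes held between 2 and 33. In each of the 12 libraries the lowest gene window exceeded the highest pseudogene window, by a factor of 3.96 to 11.8. Summed over loci, the genes held 29.4 to 56.2 times the counts of the pseudogenes (median 40.9). The pseudogenes thus had as many small RNA counts as the genes and a small fraction of the ATAC counts. An ATAC window also takes in sequence beside the interval.

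By count, RNU6-2 had the highest window of the 5 genes in 12 of 12 libraries, and RNU6-1 was second in 12 of 12. Counts were not corrected for the copy number of each locus. At RNU6-2 the GFP libraries held 1016, 1038 and 1028 counts, the LMNA libraries 1294, 1239 and 1873, the LMNB1 libraries 1619, 1912 and 1377, and the LMNB2 libraries 1545, 1543 and 1461. At RNU6-1 the same groups held 276, 237 and 210, then 344, 319 and 454, then 380, 459 and 399, and last 392, 400 and 294. RNU6-2 exceeded RNU6-1 by a factor of 3.45 to 4.97. RNU6-7, RNU6-8 and RNU6-9 followed with medians of 193.5, 218.5 and 196.5 counts per library, and their order changed from library to library. In GFP the 5 genes had 5.94 ± 0.569 (RNU6-2), 1.41 ± 0.329 (RNU6-1), 0.993 ± 0.113 (RNU6-9), 0.924 ± 0.220 (RNU6-8) and 0.839 ± 0.279 CPM (RNU6-7; SD, n = 3). The last 3 overlap one another. Among 2978 windows of about the same width, 98.6% to 99.7% had a lower GFP mean CPM than a given U6 gene window. For the pseudogenes that share ranged from 65.5% (RNU6-4P) to 95.5% (RNU6-5P).

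**Figure D3:**
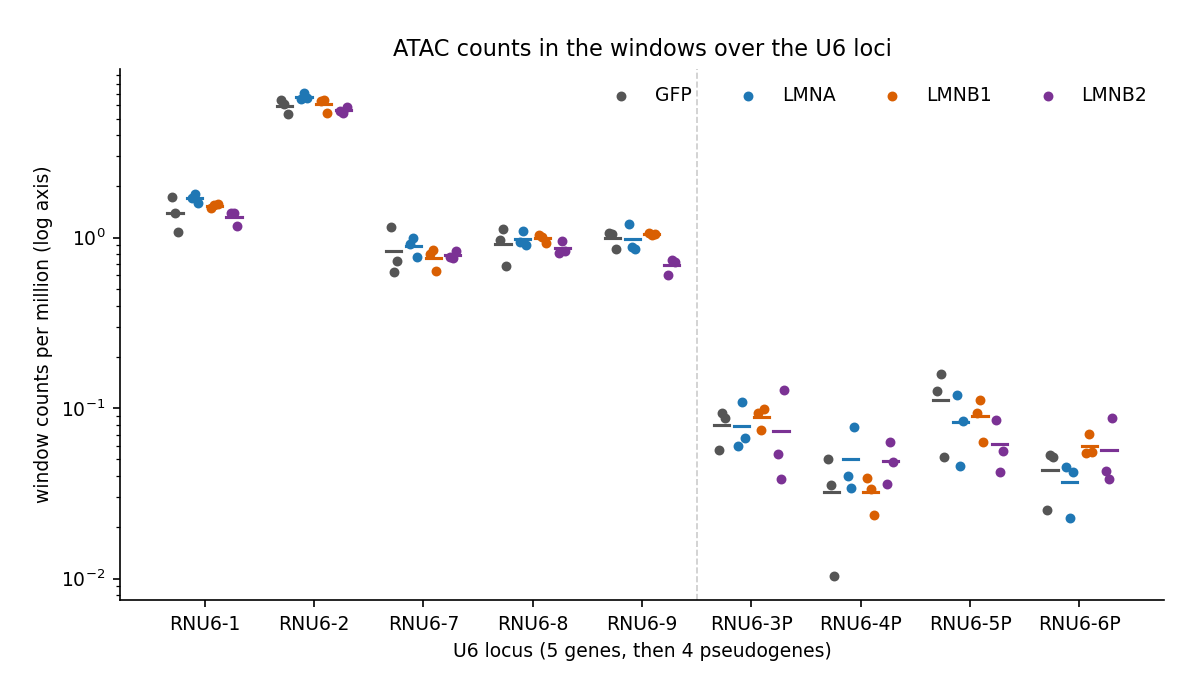
ATAC CPM on a log axis for the window over each U6 locus (x axis, 5 genes then 4 pseudogenes), with a point per library and a short line at the mean of each group of 3. Gene windows lay at 0.606 CPM or more in every library and pseudogene windows at 0.158 CPM or less.

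The gene windows also stood above their own surroundings. Per base pair, the window held 24.8 to 29.8 times the counts of the 50000 bp flanks at RNU6-2, 9.42 to 15.9 times at RNU6-1, 13.7 to 23.1 times at RNU6-7, 14.8 to 26.0 times at RNU6-8 and 3.80 to 7.12 times at RNU6-9, over the 12 libraries. The median ratios were 26.9 at RNU6-2, 21.0 at RNU6-8, 16.0 at RNU6-7, 12.8 at RNU6-1 and 5.76 at RNU6-9. RNU6-1, second by count, thus stood below RNU6-8 and RNU6-7 by this ratio. On chromosome 14 the 50000 bp 3′ flank of each gene takes in the window of the other, which lowers both ratios. Summed over the 12 libraries, that flank of RNU6-8 held 15235 counts. The RNU6-7 window and its 5′ flank of 500 bp, both inside it, held 2265 and 5006. The pseudogene windows held 0.656 to 7.82 times the counts of their flanks. RNU6-9 had the lowest ratio of the genes, and its flanks held 1203 counts per kb on the 5′ side and 1064 on the 3′ side, summed over the 12 libraries. Those of RNU6-2 held 1457 and 1660. Around RNU6-7 the flanks held 210 and 456, and around RNU6-1 they held 805 and 806.

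The openness was not even on the 2 sides of a U6 gene. For 4 of the 5 genes the 500 bp flank on the 5′ side held more counts than the one on the 3′ side in 12 of 12 libraries. Summed over the libraries, the counts were 3189 against 455 at RNU6-1 (7.01 times), 1201 against 252 at RNU6-9 (4.77 times), 5006 against 1845 at RNU6-7 (2.71 times) and 1347 against 511 at RNU6-2 (2.64 times). RNU6-8 was the reverse, with 718 on the 5′ side and 1947 on the 3′ side. Its 3′ flank is the stretch between the facing chromosome 14 genes and overlaps the RNU6-7 window by 139 bp, as the 3′ flank of RNU6-7 overlaps the RNU6-8 window. The 5′ flanks of RNU6-2 and RNU6-9 lie wholly inside TMEM259 and MED16, so their counts also belong to those genes. The 5′ flank of RNU6-7 held more counts per kb (10012) than the RNU6-7 window itself (5551). These flanks begin 350 bp outside the window, and the stretch from 150 to 500 bp beyond the gene is in no count of its own locus. On chromosome 14 the 3′ flank of each gene covers that stretch on the 3′ side of the other. The U6 promoter lies next to the gene, nearer than these flanks. Whether the asymmetry has to do with the promoter was not tested. The pseudogene flanks of 500 bp held 18 counts or fewer per library on either side, with no side favoured at all 4 loci.

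**Figure D4:**
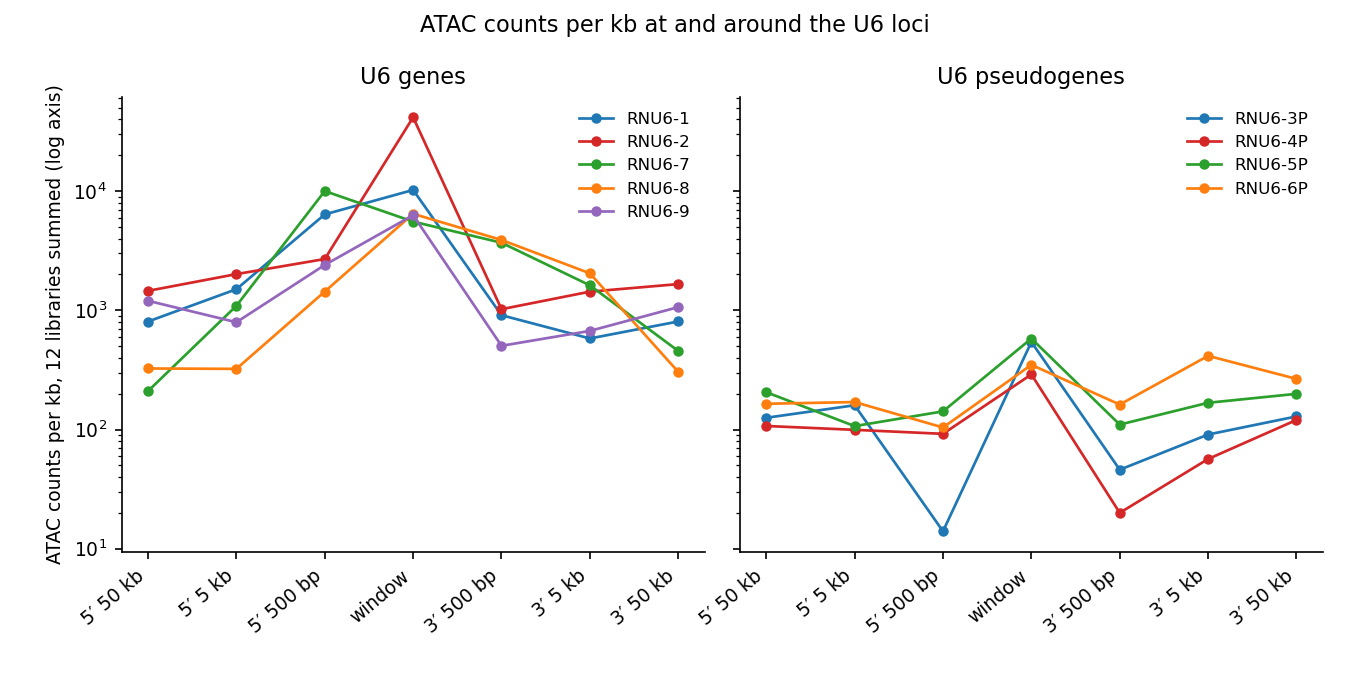
ATAC counts per kb, summed over 12 libraries, on a log axis, for the window and the flanks of 500, 5000 and 50000 bp on the 5′ and 3′ sides (x axis) of 5 U6 genes (left) and 4 pseudogenes (right). RNU6-2 peaks at 41634 in its window, RNU6-7 at 10012 in its 5′ flank of 500 bp, and pseudogene windows stay below 600.

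No ATAC window over a U6 locus passed the test in a comparison with GFP. All 9 were tested among 163786 windows with the same edgeR test and adjustment. For LMNA, 0 of 9 were called beside 0.000611% of all windows, and DESeq2 called 0 of 9. RNU6-1 had a log2 fold change of 0.29 ± 0.13 (unadjusted p = 0.0347, adjusted p = 0.957) and RNU6-2 had 0.18 ± 0.08 (unadjusted p = 0.0388, adjusted p = 0.957), and 5.19% of all windows had an unadjusted p under 0.05. RNU6-2 was the 1 locus of 9 whose LMNA libraries (6.47, 7.05 and 6.59 CPM) all lay above GFP (6.41, 6.09 and 5.31), a separation seen in 4.81% of all windows. The other 3 genes had values of 0.09 (RNU6-7), 0.09 (RNU6-8) and -0.02 (RNU6-9). Without GFP replicate 3 the median over the 9 loci went from 0.09 to -0.00147.

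For LMNB1, 0 of 9 windows were called beside 0.00305% of all windows, and DESeq2 called 0 of 9. Of the 9, 0 had an unadjusted p under 0.05, where 4.78% of all windows had one. The gene windows ran from -0.13 (RNU6-7) to 0.13 (RNU6-1). The 95% interval of RNU6-2, the best measured, was -0.13 to 0.19. At 1 of 9 loci, the pseudogene RNU6-6P, the LMNB1 libraries (14, 21 and 14 counts) lay above GFP (4, 9 and 10) also after scaling, which 4.62% of all windows did. Its log2 fold change of 0.40 ± 0.53 was within its error.

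For LMNB2, 0 of 9 windows were called beside 0.00244% of all windows, and DESeq2 called 0 of 9. All 5 gene windows were below 0, with 4 of them between -0.09 and -0.08, and RNU6-9 at -0.52 ± 0.15 (95% interval -0.81 to -0.23). The RNU6-9 window had 1.06, 1.06 and 0.862 CPM in GFP and 0.606, 0.744 and 0.716 in LMNB2. It had 1.21, 0.882 and 0.859 CPM in LMNA and 1.06, 1.04 and 1.05 in LMNB1. The 3 LMNB2 libraries were the lowest of the 12, and RNU6-9 was the 1 locus of 9 whose LMNB2 libraries all lay below GFP, against 4.72% of all windows. Its unadjusted p was 0.00126 and its adjusted p 0.815 by edgeR, so it did not pass among 163786 windows. With library totals in place of TMM the median over the 9 windows was 0.02, where that of all windows was 0.11, and RNU6-9 had -0.41. The RNU6-9 value kept its sign in 21 of 21 alternatives, from -0.61 to -0.41, and the lowest adjusted p among them was 0.182.

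In the joint test of the 3 lamins, 0 of 9 windows passed beside 0.0916% of all windows. Of the 9, 3 had an unadjusted p under 0.05, where 6.24% of all windows had one. RNU6-9 had the lowest (unadjusted p = 0.000423, adjusted p = 0.152 by edgeR), then RNU6-2 (0.00992, adjusted 0.521) and RNU6-1 (0.0248, adjusted 0.705). DESeq2 passed 1 of 9, RNU6-9 (adjusted p = 0.0143), where it passed 0.992% of all windows. A fit to the 9 lamin libraries alone passed RNU6-9 too, at an edgeR adjusted p of 0.0495, beside 0.503% of all windows. With edgeR the call on RNU6-9 between lamins thus depended on the libraries fitted. The DESeq2 joint test was likewise fitted to the lamin libraries alone, so a dependence on the tool is not shown. Across the 21 alternatives the adjusted p of RNU6-9 ran from 0.0143 to 0.750.

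**Figure D5:**
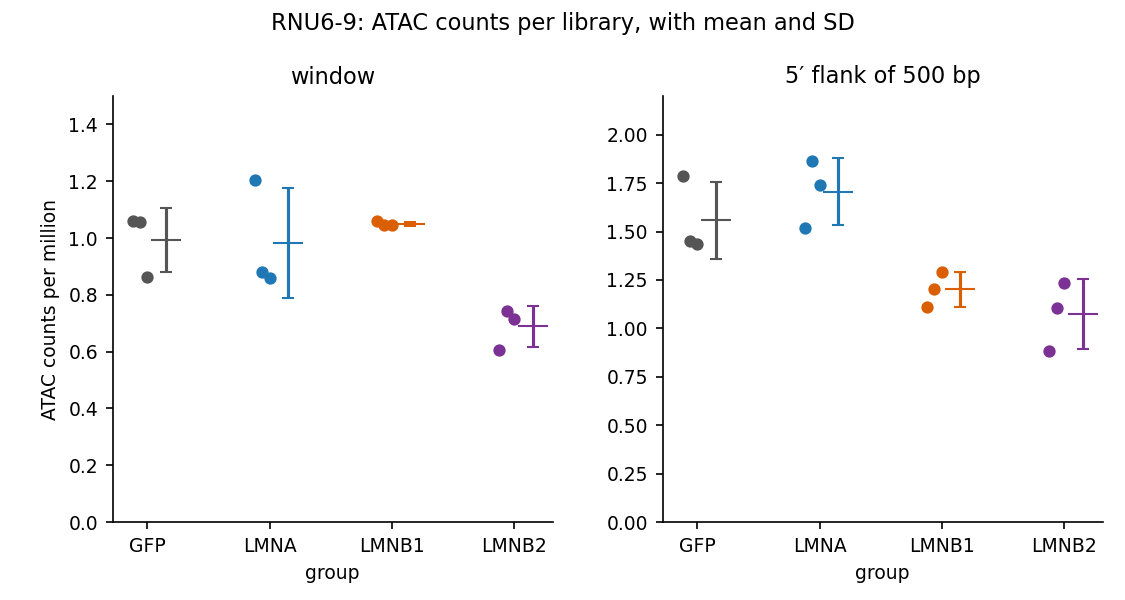
ATAC CPM (y axis) at RNU6-9 in each of 3 libraries per group (points), with the mean and SD (bars), for the window (left) and the 5′ flank of 500 bp (right). The LMNB2 libraries lie at 0.606 to 0.744 in the window, below all others; in the flank LMNB1 and LMNB2 both lie below GFP.

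The 5′ flank of RNU6-9, which is MED16 sequence, had a similar LMNB2 value to the window. Its deposited counts were 93, 80 and 88 in GFP and 78, 100 and 98 in LMNB2, and overlapped before scaling. In CPM, here scaled to the 500 bp flanks, GFP had 1.79, 1.45 and 1.44 and LMNA had 1.52, 1.86 and 1.74. LMNB1 had 1.11, 1.20 and 1.29 and LMNB2 had 0.881, 1.10 and 1.24, so the lamin B libraries lay below GFP. Of all tested 500 bp flanks, 4.66% lay wholly below GFP in LMNB1 and 4.8% in LMNB2. Scaling by library totals alone shifted the median of all such flanks to 0.32 for LMNB1 and 0.35 for LMNB2, so the size of these values depends on the scaling. Its log2 fold change was -0.53 ± 0.19 for LMNB2 (unadjusted p = 0.00488, adjusted p = 0.701 by edgeR) and -0.36 ± 0.18 for LMNB1 (unadjusted p = 0.0466, adjusted p = 0.878). On the 3′ side, with 7 to 32 counts per library, the LMNB2 value was 0.02 ± 0.40. The 5′ flank of RNU6-8 had -0.58 ± 0.24 for LMNB2 (unadjusted p = 0.0143, adjusted p = 0.821), with its 3 libraries below GFP. Other 500 bp flanks of U6 genes separated from GFP as well. Those wholly below were the 5′ flank of RNU6-1 for LMNB2 (-0.20), that of RNU6-2 for LMNA (-0.19) and LMNB1 (-0.21), and that of RNU6-8 for LMNA (-0.37), where 4.67% of all such flanks lay wholly below GFP in LMNA. The 3′ flank of RNU6-1 lay wholly above for LMNB1 (0.40), as did 5.76% of all. The flank and window of 1 locus are neighbours in the same libraries and are not independent.

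Further out nothing passed the edgeR test. Of the 18 flanks of 500 bp, 12 had enough counts to be tested, including all 10 at the genes, and 0 were called for LMNA, LMNB1 or LMNB2, beside 0.000435%, 0.0483% and 0.0622% of all such flanks. Of these 12, 0, 1 and 2 had an unadjusted p under 0.05, beside 5.28%, 5.66% and 5.74% of all such flanks. All 18 flanks of 5000 bp were tested and 0 were called, beside 0.000571%, 0.00856% and 0.0494%, with 0, 0 and 1 unadjusted p-values under 0.05. Such p-values were found in 5.64%, 5.67% and 6.06% of all flanks of that size. All 18 flanks of 50000 bp were tested and 0 were called, beside 0.00684%, 0.0111% and 0.0254%, with 0, 2 and 2 such p-values. At that size the shares of all flanks were 6.14%, 5.77% and 7.5%. At the 50000 bp scale the 10 gene flanks were the most precise, and their LMNB2 values ran from -0.06 to 0.03. A second tool was not run on the flanks.

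Of the 41 windows over other spliceosomal RNA genes, of the 8 over other upstream-promoter genes and of the 3 tested over U6 guide RNAs, none was called in any comparison with GFP, at medians between -0.22 and 0.08. For LMNB2, 7 of the 8 upstream-promoter windows were below 0, and 2 had an unadjusted p under 0.05, as did 5.72% of all windows. The RNY3 window had -0.48 ± 0.14 (edgeR unadjusted p = 0.00162, adjusted p = 0.815), close in size to RNU6-9, and the RNY5 window had -0.39 ± 0.16 (unadjusted p = 0.0206, adjusted p = 0.862). A value of that size was thus not seen at RNU6-9 alone. Among the 940 other U6-related entries 263 windows were tested and none was called. The median of the mean counts over the 940 windows was 4.58, below the medians of 9 to 22 counts per library at the 4 pseudogenes described above.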

How the data were processed

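Small RNA-seq and ATAC-seq libraries of HEK293 cells (4 groups, 3 replicates per group and assay) were analysed from a table per assay. The authors deposited raw counts in both tables: whole numbers per annotated entry and library. Coordinates are GRCh38, per the submitters' processing notes. How reads were aligned and counted, whether strand was used, and the treatment of reads with several matches or of duplicates are not given in the sources used here. All of these bear on U6, a multi-copy family. The batch label differs between the assays only.

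Entries were matched to RefSeq genes (GRCh38) by position. ATAC windows extend each entry by 125 bp, and flanks start 350 bp further out. In each assay the 12 libraries were fitted in edgeR 4.0.16 (R 4.3.3) with the filterByExpr count filter, TMM scaling, robust estimation and a prior count of 2, and p-values were adjusted by Benjamini-Hochberg over all tested entries (33893 small RNA entries, 163786 ATAC windows). Calls had an adjusted p under 0.05. The joint test compared the 3 lamins with one another. In DESeq2 it was fitted to the lamin libraries alone, with scaling factors from all 12 libraries. The biological coefficient of variation was 0.227 for small RNA and 0.0850 for ATAC. DESeq2 1.42.0, other scalings, filters and sample sets were alternatives. Intervals are ±1.96 SE (nominally 95%). Fold changes carry the prior count of 2, while the SE comes from the edgeR test, which does not use it. Intervals and p-values can therefore differ, most at low counts. The fits were tested on simulated data.

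The U6 loci, the related lists and the tests were chosen with earlier results of these data known. Named genes were all 9 U6 loci, called members of 4 related lists, some uncalled members of those lists, and the 5 entries most correlated with U6. Uncalled members were not named by 1 rule. The RNY3 and RNY5 windows are the 2 of 8 upstream-promoter windows with an unadjusted p under 0.05 for LMNB2, so they were named by their result.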

Additional observations from a re-analysis of the deposited data

How the results depend on the processing

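The count of U6 loci called was 0 in every comparison with GFP, for small RNA entries and ATAC windows, under each alternative run: DESeq2, other scalings, other filters, fewer libraries, the replicate block and leaving out each library in turn. In the joint test of the lamins it rose from 0 to 2 in small RNA with no count filter (RNU6-7 and RNU6-8, beside 1.11% of all entries), with DESeq2 (RNU6-6P and RNU6-8, 6.45%) and with the lamin libraries alone (RNU6-6P and RNU6-5P, 12%), and from 0 to 1 in ATAC windows with DESeq2 and with the lamin libraries alone. The DESeq2 joint test was fitted to the lamin libraries too, so tool and libraries are not separated there. The cause was not tested. Flanks were called under scaling by library totals alone, 5 for LMNA, 6 for LMNB1 and 20 for LMNB2. At 5000 bp these were 0, 5 and 13, where that scaling called 9, 102469 and 197651 of all 350327 flanks, nearly all higher for the lamin B groups (LMNB2 median 0.51). At 50000 bp they were 5, 1 and 7, where it called 134724, 15943 and 99569 of all 351053, nearly all lower (LMNA median -0.16). It moved the median of all small RNA entries for LMNB2 from -0.04 to 0.19.

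Leaving out 1 library kept every count of U6 calls at 0. Directions were less stable: without GFP replicate 1 the median over the 9 small RNA loci went from -0.34 to 0.09 for LMNB1, from -0.11 to 0.28 for LMNB2 and from 0.15 to 0.52 for LMNA; without GFP replicate 2 it was -0.04 for LMNA. In ATAC, without GFP replicate 3 it was -0.04 for LMNB1. Leaving out GFP replicate 3 and LMNA replicate 3 together, chosen after seeing the data, called 0 U6 loci and moved the LMNA median to -0.000705; entries called in all became 305, 81 and 2506 of 35452, and 2616 in the joint test.

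Deviations of same-numbered replicates correlated at -0.04 to 0.23 in small RNA and -0.08 to 0.19 in ATAC, against -0.21 to 0.07 and -0.15 to 0.09 for other numbers, and 8 and 6 of 12 libraries correlated best with their own number. This is a hint of pairing from the data, but not every pair shows it and the labels give no shared source. With the replicate block, U6 calls stayed at 0, RNU6-9 in ATAC had -0.52 for LMNB2 (edgeR adjusted p = 0.537), and all calls in ATAC windows went from 1 to 60 for LMNA and from 150 to 553 in the joint test.

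Over all settings the count of entries called in all ranged from 0 to 304, 1 to 127, 21 to 2101 and 79 to 3887 in small RNA (LMNA, LMNB1, LMNB2, joint), and from 0 to 222, 4 to 110, 4 to 116 and 8 to 1625 in ATAC windows. At 2 to 33 counts per pseudogene window, ATAC changes there were not detectable unless large.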
